A study of Mus musculus with 21 samples.

Results

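The 9 keratin genes described here, Krt14, Krt15, Krt17, Krt18, Krt19 and Krt20 of type I and Krt5, Krt7 and Krt8 of type II, are the keratins that mark simple and basal epithelium, and they were chosen by symbol from a table of 24091 genes. They were measured by RNA sequencing in C3H/10T1/2 cells, a mouse embryonic mesenchymal progenitor line, that carried histone H2B with 1 glutamate (E71, E76 or E113) changed to lysine (E71K, E76K, E113K; the charge is reversed) or to glutamine (E71Q, E76Q, E113Q; the charge is lost), or wild-type H2B (WT). Each of the 7 groups had 3 libraries, 21 in all, which the design text calls biological replicates that are independent of each other. The sources used here do not say how H2B was expressed or whether each line is 1 clone, so the substitution and other differences between lines cannot be told apart, and neither can introduced and endogenous H2B. Levels are given as TPM, transcript abundances that are adjusted for transcript length and sum to a fixed total in each library, so genes can be compared with each other but the sequencing depth is unknown. In cell populations such as these, fewer cells that express a gene and less RNA per cell cannot be told apart.

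Keratins are the intermediate filament proteins of epithelial cells. A filament is built from pairs of an acidic type I and a basic type II chain, and a chain without a partner is normally unstable. Krt5 and Krt14 form the pair of the basal layer of stratified epithelium, and Krt8 and Krt18 form the pair of simple epithelium, often joined by Krt7 and Krt19 in ducts and mesothelium. Krt15 marks basal keratinocytes and the stem cells of the hair follicle bulge, Krt17 marks epithelial appendages and wounded epidermis, and Krt20 marks gut and bladder lining. Mesenchymal cells rely on vimentin, and full keratin filaments are not a usual feature of fibroblast-like lines.

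Some markers of the labelled mesenchymal type were abundant in every library. Across the 21 libraries Vim lay between 2986 and 5947 TPM and Col1a1 between 924 and 2021 TPM. Epcam, the general epithelial surface marker, was listed at 0 in 20 libraries, and Cldn4 and Crb3 were at 0 in all 21. Other markers went the other way. Thy1, a mesenchymal surface marker, ran from 0 to 134 TPM and was near 0 in E71K, E71Q and E76Q. The epithelial genes Cdh1 (0.328 to 6.64 TPM) and Trp63 (0.573 to 6.66 TPM) were above 0 in every library. The libraries of a group were not equally alike. Once group means were removed, the leading principal component (24% of the remaining variance) separated the 3 libraries of E71K by 89.8 units, of E71Q by 52.3, of E76K by 39.6 and of E113Q by 30.3, but those of E76Q by 4.4, of E113K by 1.6 and of WT by 3.1. The libraries lying most apart were the third of E71K, of E76K and of E113Q and the first of E71Q. The small RNA gene Mir6236 took between 2.19% and 30.6% of the TPM total of a library.

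The keratins lie in the 2 keratin clusters of the mouse genome (build GRCm38). On chromosome 11 are Krt20 (99428385 to 99438153), Krt15 (100131759 to 100135949), Krt19 (100140810 to 100145926), Krt14 (100203162 to 100207510) and Krt17 (100256215 to 100261029), and on chromosome 15 are Krt7 (101412403 to 101427806), Krt5 (101707069 to 101712905), Krt8 (101996711 to 102004342) and Krt18 (102028216 to 102032026), a type I gene that sits 23.9 kb from Krt8 among type II genes. Some are close copies, which limits how well reads can be assigned to 1 gene. Of the 31-base words of the transcripts of Krt14, 29.2% also occur in transcripts of other genes, 18.2% in Krt16 and 10.8% in Krt17. The following coding stretches of 100 bases, taken from the GENCODE M21 transcripts on the minus strand of chromosome 11, show that copy at its closest. Capitals mark bases that differ from Krt14, and each stretch lies within 1 exon.
Krt14, chr11:100207017-100207116: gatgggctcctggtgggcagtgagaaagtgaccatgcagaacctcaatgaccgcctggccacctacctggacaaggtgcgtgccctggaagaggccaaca
Krt16, chr11:100248476-100248575: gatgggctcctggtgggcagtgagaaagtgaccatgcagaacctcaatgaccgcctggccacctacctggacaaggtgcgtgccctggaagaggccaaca
Krt17, chr11:100260638-100260737: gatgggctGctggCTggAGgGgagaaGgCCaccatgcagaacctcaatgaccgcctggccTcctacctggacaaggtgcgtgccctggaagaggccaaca
Krt15, chr11:100135489-100135588: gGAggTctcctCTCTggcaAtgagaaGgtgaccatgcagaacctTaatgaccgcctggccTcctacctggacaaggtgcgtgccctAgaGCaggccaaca
Krt14 and Krt16 are identical in this stretch and over 134 coding bases around it, while Krt17 differs at 10 and Krt15 at 14 of the 100 positions. Over the aligned coding bases Krt14 was 86.4% identical to Krt16, 84.1% to Krt17 and 72.9% to Krt15. Values of Krt14, Krt16 and Krt17 are therefore uncertain where their reads could be divided between them. Krt15 shared 3.89% of its words, Krt7 2.71%, Krt19 0.517% and Krt20 none. Krt8 shared 32.3%, of which nearly all lay in the pseudogene Krt8-ps (32.2%), which was not among the genes listed. Whether reads of Krt8-ps entered the Krt8 values was not tested.

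A gene was tested when its mean over the 21 libraries was at least 1 TPM, which left 12192 genes. Of the 9 keratins 3 were tested, namely Krt14, Krt15 and Krt8, with a mean of 1.1 TPM for Krt8. Krt7, with a mean of 0.767 TPM, fell just outside. Krt5, Krt17, Krt18 and Krt20 stayed under 1 TPM in every library. Krt15 passed only through the groups in which it is high (E71K, E76K and E76Q), and Krt8 only through WT. Krt14, highest in E71K and E71Q, would also have passed on its values in the other groups, mostly those of E76K. For Krt15 and Krt8 the filter thus selected on the groups that are high, and the number of tested keratins is no support for anything. The 6 comparisons with WT share the 3 WT libraries.

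**Figure D1:**
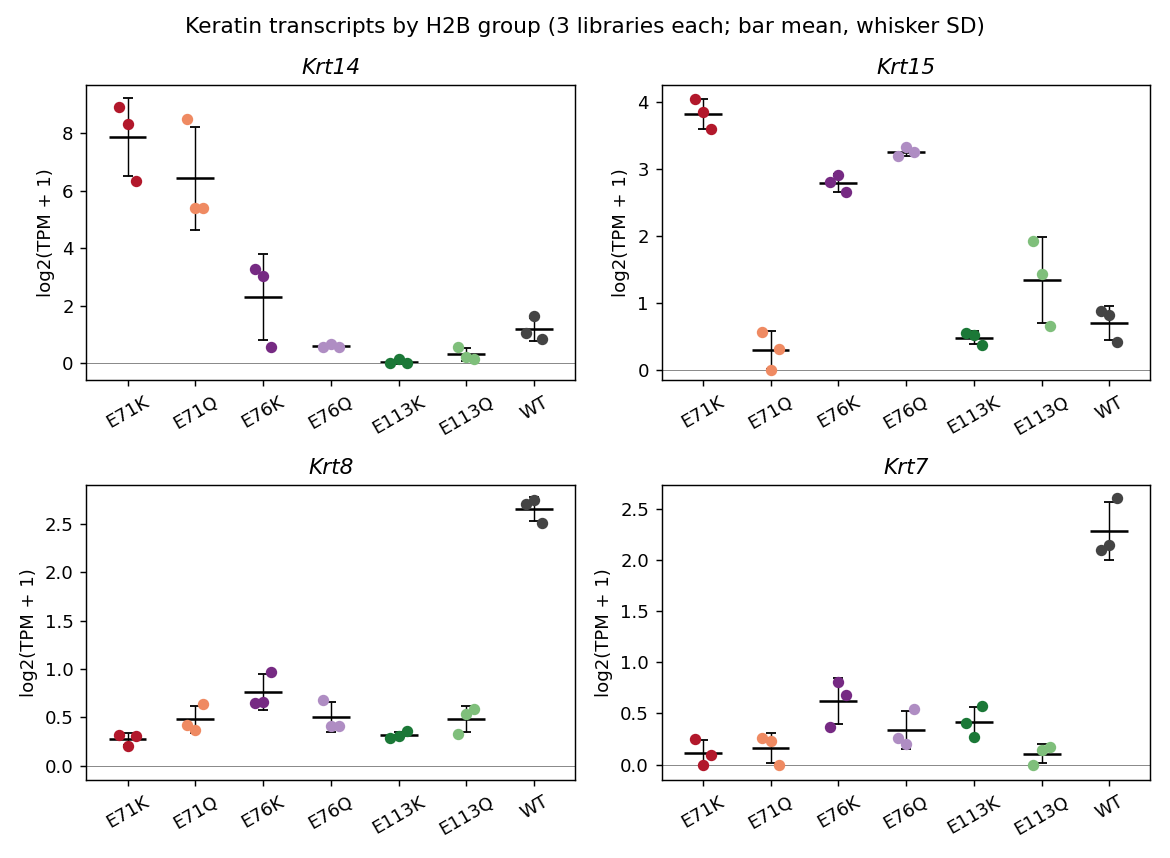
Levels of Krt14, Krt15, Krt8 and Krt7, as log2(TPM + 1), in the 21 libraries, with the 6 mutants to the left of WT; each point is a library, and horizontal bars and whiskers are the mean and SD of 3 libraries on that scale. Krt14 is high in E71K and E71Q, Krt15 in E71K, E76K and E76Q, and Krt7 and Krt8 in WT.

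Krt14, the type I keratin of basal cells (Entrez Gene 16664), was the most abundant of the 9. It stood at 483, 320 and 79.1 TPM in the E71K libraries and at 363, 40.8 and 40.8 TPM in the E71Q libraries, against 1.07, 2.08 and 0.788 TPM in the WT libraries. Every E71K and E71Q library lay above every WT library, by an order of magnitude or more. In E76K it had 8.66, 7.22 and 0.475 TPM, and in E76Q 0.459, 0.588 and 0.469 TPM. In E113K it was listed at 0, 0.104 and 0 TPM, and in E113Q at 0.46, 0.159 and 0.0985 TPM. The E76K libraries straddled those of WT, while all E76Q, E113K and E113Q libraries lay under the lowest WT library. Group means were 294 ± 203 TPM in E71K, 148 ± 186 in E71Q and 5.45 ± 4.37 in E76K, against 1.31 ± 0.678 in WT (SD, n = 3 each). From the highest mean down, the order was E71K, E71Q, E76K, WT, E76Q, E113Q and E113K, and the neighbours whose libraries overlapped were E71K and E71Q, E76K and WT, E76Q and E113Q, and E113Q and E113K.

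By limma on log2(TPM + 1), Krt14 rose by 6.68 ± 0.77 in E71K (log2 fold change ± SE, adjusted p = 2.85e-06), in a comparison in which 12.5% of tested genes rose, and by 5.25 ± 0.77 in E71Q (adjusted p = 3.41e-05), where 20.7% rose. By the F test over the 7 groups all 3 tested keratins differed (adjusted p = 1.73e-07 for Krt14, 9.02e-10 for Krt15 and 6.02e-09 for Krt8), as did 77.1% of tested genes. Krt14 was not called in E76K (log2 fold change 1.12, adjusted p = 0.278), E76Q (-0.58, adjusted p = 0.566), E113K (-1.12, adjusted p = 0.235) or E113Q (-0.87, adjusted p = 0.418). The 2 amino acids at position 71 were not told apart, with E71K above E71Q by 1.43 ± 0.77 (adjusted p = 0.185). Neither were those at position 76 (1.70, adjusted p = 0.102) or E113 (-0.25, adjusted p = 0.847). Of tested genes, 25.1% were called between E71K and E71Q, 31.9% between E76K and E76Q and 28% between E113K and E113Q. Between residues, Krt14 was lower in E76K than in E71K (-5.57, adjusted p = 2.8e-05; 29.3% of tested genes called), in E113K than in E71K (-7.81, adjusted p = 3.56e-07; 47.3% called) and in E113K than in E76K (-2.24, adjusted p = 0.0331; 32.8% called). It was also lower in E76Q than in E71Q (-5.84, adjusted p = 2.53e-05; 19.7% called) and in E113Q than in E71Q (-6.13, adjusted p = 1.26e-05; 23.4% called), and was not called between E113Q and E76Q (-0.29, adjusted p = 0.844; 22.1% called).

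Within the groups that spanned the leading component widely, the library at its high end had the lowest Krt14 in E71K (79.1 TPM), E76K (0.475 TPM) and E113Q (0.0985 TPM), and in E71Q it shared the lowest value of 40.8 TPM with replicate 2. The order did not hold throughout: in E71K replicate 2, at the low end, had 320 TPM and replicate 1 had 483 TPM, and in E76K these replicates had 7.22 and 8.66 TPM. Krt14 is itself 1 of the genes from which the component was made. The part of this component in the Krt14 result was not tested. Without the 4 libraries that stand apart, Krt14 rose by 7.45 in E71K (adjusted p = 1.64e-11), by 4.21 in E71Q (adjusted p = 1.95e-09) and by 1.98 in E76K (adjusted p = 5.96e-06). It fell in E76Q (-0.58, adjusted p = 0.0167), E113K (-1.12, adjusted p = 0.000159) and E113Q (-0.79, adjusted p = 0.00788), and E71K exceeded E71Q by 3.24 (adjusted p = 1.46e-07). The libraries left out held the lowest Krt14 of E71K (79.1 TPM), E76K (0.475 TPM) and E113Q (0.0985 TPM) and the highest of E71Q (363 TPM). Leaving them out therefore had to raise E71K, E76K and E113Q, lower E71Q and widen the gap between E71K and E71Q. Each of them left out alone moves its own group in the same direction. Single libraries decided the calls between lysine and glutamine: E71K exceeded E71Q without replicate 3 of E71K (2.20, adjusted p = 0.036) or replicate 1 of E71Q (2.47, adjusted p = 0.0139), and E76K exceeded E76Q without replicate 3 of E76K (2.57, adjusted p = 0.0164) or replicate 1 of E71Q (1.70, adjusted p = 0.0395).

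**Figure D2:**
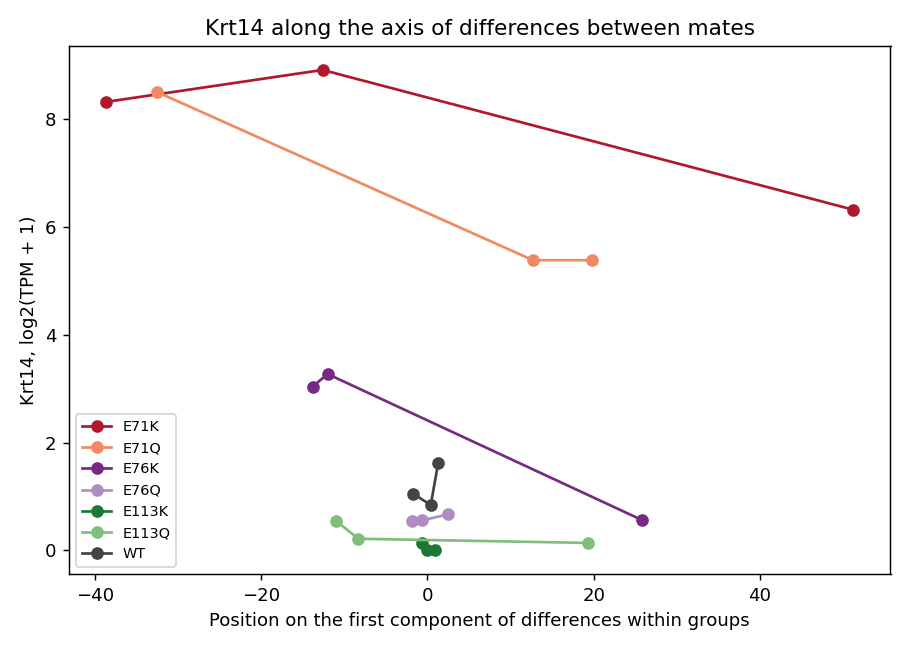
Krt14, as log2(TPM + 1), against the position of each library on the leading component of the differences within groups, with lines joining the libraries of a group. In E71K, E76K and E113Q the library farthest to the right has the lowest Krt14, and in E71Q it is level with replicate 2 at 40.8 TPM, while the libraries of E76Q, E113K and WT lie close together.

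Krt16, the neighbour of Krt14 at 38.6 kb and its closest copy, which is induced with its type II partners in wounded epidermis, had 21.9, 17.3 and 1.67 TPM in E71K and 26.5, 2.71 and 2.21 TPM in E71Q, against 0.0705, 0.057 and 0.188 TPM in WT. It rose by 3.24 ± 0.70 in E71K (adjusted p = 0.00188) and by 2.64 ± 0.70 in E71Q (adjusted p = 0.00549). In the 6 libraries of E71K and E71Q it was between 2.12% and 7.3% of Krt14. Of the 31-base words of Krt16, 51.9% also occur in transcripts of other genes, 32.2% in Gm11597 and 19.7% in Krt14. Gm11597 was not among the genes listed. Whether reads of Krt14 or Gm11597 entered the Krt16 values was not tested. Krt17, only 7.31 kb from Krt16 and also a close copy, was at most 0.205 TPM in any library and at 0 in 17. Of all tested genes the 2 most like Krt14 over the 21 libraries were Duox1, an NADPH oxidase of epithelia (Pearson r = 0.973; Spearman's rho = 0.89 over the 7 group means), and Sgk1, the serum- and glucocorticoid-regulated kinase (r = 0.937; rho = 0.93), and Krt16 ranked 3 with r = 0.922. Duox1 averaged 3.49 ± 1.08 TPM in E71K and 3.07 ± 0.766 in E71Q, against 0.622 ± 0.106 in WT (SD, n = 3 each), and Sgk1 averaged 114 ± 34.4 TPM in E71K and 122 ± 11.9 in E71Q, against 38.3 ± 3.25 in WT. These correlations describe libraries that share groups and the component above.

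**Figure D3:**
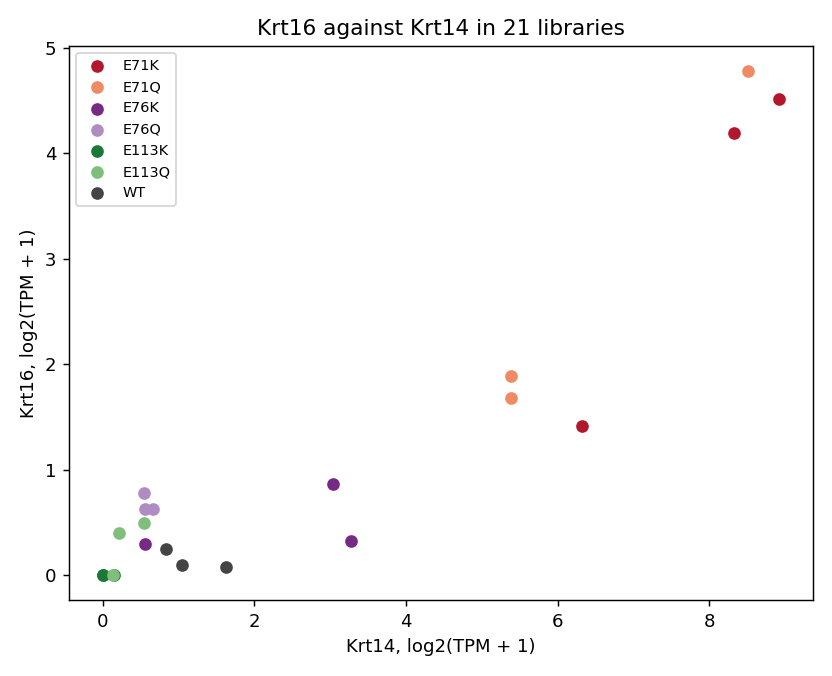
Krt16 against Krt14, both as log2(TPM + 1), in the 21 libraries. The 6 libraries of E71K and E71Q have the 6 highest values of both genes, and the 3 of them with the most Krt14 have 17.3 to 26.5 TPM of Krt16, while the other 3 have 1.67 to 2.71 TPM.

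Krt15, the other type I keratin of basal cells that was tested (Entrez Gene 16665), had another pattern. It stood at 15.5, 13.4 and 11.1 TPM in E71K, 5.98, 6.55 and 5.32 TPM in E76K and 8.18, 9.08 and 8.55 TPM in E76Q, against 0.84, 0.777 and 0.336 TPM in WT. These 3 groups lay wholly above WT and did not overlap with each other. In E71Q it had 0.483, 0 and 0.25 TPM, in E113K 0.469, 0.434 and 0.296 TPM, and in E113Q 2.82, 1.7 and 0.585 TPM, all 3 groups overlapping with WT. Krt15 and Krt14 thus differed at position 71, where Krt14 was high in both mutants and Krt15 in E71K alone of the pair, and at 76, where Krt15 was high in both mutants. The mean of Krt15 was 13.3 ± 2.18 TPM in E71K, 5.95 ± 0.617 in E76K and 8.61 ± 0.452 in E76Q, against 0.651 ± 0.275 in WT (SD, n = 3 each).

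Krt15 rose by 3.12 ± 0.24 in E71K (adjusted p = 1.64e-08), by 2.08 in E76K (adjusted p = 3.04e-06), where 23.5% of tested genes rose, and by 2.55 in E76Q (adjusted p = 2.26e-07), where 22% rose. Of tested genes 30.3% rose in E113K and 17.9% in E113Q. Krt15 was not called in E71Q (-0.41, adjusted p = 0.177; called fallen without the 4 libraries that stand apart, -0.55, adjusted p = 0.0134, and with a pseudocount of 0.1, -1.38, adjusted p = 0.0421), E113K (-0.23, adjusted p = 0.45) or E113Q (0.63, adjusted p = 0.0546), where it was called without replicate 3 of E113Q (0.97, adjusted p = 0.00157). Lysine and glutamine differed at position 71, where E71K exceeded E71Q by 3.53 ± 0.24 (adjusted p = 1.17e-08), and at E113, where E113K was lower than E113Q (-0.86, adjusted p = 0.0132). That call at E113 was lost without replicate 1 of E113Q (-0.56, adjusted p = 0.0835). At 76 the libraries of E76K lay under those of E76Q, with a difference of -0.47 (adjusted p = 0.148) that was called with a pseudocount of 5 (-0.31, adjusted p = 0.0266), in the compared libraries alone (adjusted p = 0.0111) and without replicate 3 of E113Q (adjusted p = 0.0494). The difference at E71 exceeded that at E76 (21.7% of tested genes called in this interaction) and that at E113 (32.7% called), and those at E76 and E113 gave no call (29.5% of tested genes called). Between residues Krt15 was lower in E76K than in E71K (-1.04, adjusted p = 0.00337), in E113K than in E71K (-3.35, adjusted p = 5.81e-09) and in E113K than in E76K (-2.31, adjusted p = 1.15e-06). It was higher in E76Q than in E71Q (2.97, adjusted p = 8.41e-08) and in E113Q than in E71Q (1.05, adjusted p = 0.00394), and lower in E113Q than in E76Q (-1.92, adjusted p = 1.2e-05). The spread of Krt15 between mates in E71K (11.1 to 15.5 TPM) was far smaller than that of Krt14 in the same libraries (79.1 to 483 TPM). The 2 genes most like Krt15 were Ldb2, a cofactor of LIM-domain transcription factors (r = 0.899; rho = 0.93), and Adra1b, an adrenergic receptor (r = 0.892; rho = 0.79). Ldb2 averaged 28.2 ± 17.8 TPM in E71K, 0.075 ± 0.0651 TPM in E71Q, 2.7 ± 1.17 TPM in E76K and 21.6 ± 1.65 TPM in E76Q, against 1.58 ± 0.101 in WT, so that it was near WT in E76K, where Krt15 was high.

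Krt19, which lies 4.86 kb from Krt15 and lacks most of the tail of other type I keratins, stayed low. It had 1.16, 0.239 and 0.678 TPM in E71K, 0.259, 0.3 and 0.102 TPM in E76K, 0.0762, 0 and 0 TPM in E113K and 0.118, 0.207 and 0 TPM in E113Q, against 0.369, 0.703 and 0.982 TPM in WT. It was listed at 0 in all 6 libraries of E71Q and E76Q. E71K overlapped with WT, and the other mutants lay under WT. In the fit without the filter on low values, of 20157 genes, it fell in E71Q (-0.74, adjusted p = 0.00137; 31.6% of genes called), E76K (-0.45, adjusted p = 0.0382; 25.2%), E76Q (-0.74, adjusted p = 0.0014; 31.4%), E113K (-0.70, adjusted p = 0.0017; 35.9%) and E113Q (-0.59, adjusted p = 0.00891; 23.1%), and was not called in E71K (-0.01, adjusted p = 1; 21%). E71K exceeded E71Q by 0.72 ± 0.15 (adjusted p = 0.00433; 15.1% of genes called), the direction that Krt15 also had, at far higher levels.

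Krt8, the type II keratin of simple epithelium (Entrez Gene 16691), was high in WT alone. It had 0.249, 0.154 and 0.234 TPM in E71K, 0.342, 0.294 and 0.552 in E71Q, 0.565, 0.581 and 0.961 in E76K, 0.602, 0.33 and 0.329 in E76Q, 0.222, 0.234 and 0.279 in E113K and 0.258, 0.446 and 0.497 in E113Q, against 5.51, 5.7 and 4.69 TPM in WT. No mutant library reached 1 TPM, and all 3 WT libraries lay far above it. The WT mean was 25 times that of E71K, 13.4 times that of E71Q, 7.54 times that of E76K, 12.6 times that of E76Q, 21.6 times that of E113K and 13.2 times that of E113Q.

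Krt8 fell in E71K (-2.37 ± 0.16, adjusted p = 2.9e-09), E71Q (-2.17, adjusted p = 7.06e-09), E76K (-1.89, adjusted p = 6.16e-08), E76Q (-2.15, adjusted p = 1e-08), E113K (-2.34, adjusted p = 3.42e-09) and E113Q (-2.17, adjusted p = 1.07e-08). Of all tested genes, 14.2% fell in E71K, 23.5% in E71Q, 9.67% in E76K, 22.4% in E76Q, 20.7% in E113K and 12.7% in E113Q. The pseudocount of 1 TPM understates these changes, and the WT libraries, shared by all 6 comparisons, set them all. Krt8 was not called between lysine and glutamine at any of the 3 positions. Between residues it was higher in E76K than in E71K (0.48, adjusted p = 0.0303) and lower in E113K than in E76K (-0.44, adjusted p = 0.0413), at levels under 1 TPM. The 2 genes most like Krt8 were Epha5, an ephrin receptor (r = 0.983; rho = 0.86), at most 0.436 TPM in a mutant mean, against 14 ± 1.11 TPM in WT, and Lncenc1, a long noncoding RNA (r = 0.980; rho = 0.64), at most 0.581 TPM in a mutant mean, against 76.9 ± 1.56 TPM in WT.

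Krt7, the type II keratin of ducts and mesothelium (Entrez Gene 110310), shared the pattern of Krt8, 569 kb away. It had 0.193, 0 and 0.068 TPM in E71K, 0.199, 0.171 and 0 in E71Q, 0.292, 0.751 and 0.602 in E76K, 0.2, 0.154 and 0.459 in E76Q, 0.322, 0.205 and 0.488 in E113K and 0, 0.104 and 0.129 in E113Q, against 3.27, 3.42 and 5.08 TPM in WT. All 18 mutant libraries lay under all 3 WT libraries. In the fit without the filter it fell in all 6 mutants, with log2 fold changes of -2.16 in E71K, -2.12 in E71Q, -1.66 in E76K, -1.94 in E76Q, -1.87 in E113K and -2.17 in E113Q (SE 0.14) and adjusted p between 5.82e-09 and 1.56e-07. Krt18, the type I partner of Krt8, did not accompany it: its highest value was 0.215 TPM, in WT replicate 3, and it was at 0 in 16 libraries.

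Since Krt7 and Krt8 were both high in WT and low in every mutant, and Krt18 was low in all, their promoter windows are shown, from 250 bases before to 50 bases after the start (RefSeq, GRCm38.p6). Capitals mark TATAAA, the TATA box, and GGGCGG, the GC box, on either strand. The AP-1 motif TGANTCA was searched too.
Krt7, chr15:101412153-101412452, plus strand: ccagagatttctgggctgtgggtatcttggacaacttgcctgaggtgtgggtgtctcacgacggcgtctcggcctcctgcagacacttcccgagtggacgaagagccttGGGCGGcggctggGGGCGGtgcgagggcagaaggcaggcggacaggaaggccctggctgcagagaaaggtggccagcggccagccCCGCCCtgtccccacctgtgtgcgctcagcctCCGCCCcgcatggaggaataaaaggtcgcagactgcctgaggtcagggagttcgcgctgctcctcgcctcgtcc
Krt8, chr15:102004293-102004592, minus strand: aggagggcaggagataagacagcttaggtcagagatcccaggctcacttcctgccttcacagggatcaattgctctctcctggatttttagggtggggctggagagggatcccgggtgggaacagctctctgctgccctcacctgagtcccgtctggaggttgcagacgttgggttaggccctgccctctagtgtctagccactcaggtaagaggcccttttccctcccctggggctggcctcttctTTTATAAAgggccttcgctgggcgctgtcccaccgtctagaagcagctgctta
Krt18, chr15:102027966-102028265, plus strand: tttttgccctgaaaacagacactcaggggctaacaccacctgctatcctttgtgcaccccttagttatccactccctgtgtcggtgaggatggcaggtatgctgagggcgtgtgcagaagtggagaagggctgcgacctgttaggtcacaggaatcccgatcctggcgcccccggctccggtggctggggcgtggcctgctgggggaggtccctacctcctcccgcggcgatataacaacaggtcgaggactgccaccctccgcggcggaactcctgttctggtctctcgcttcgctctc
The window of Krt7 held 4 matches to GGGCGG and none to TATAAA. The window of Krt8 held 2 overlapping matches to TATAAA, 1 on each strand, and none to GGGCGG. That of Krt18 held neither, and TGANTCA was in none of the 3. Of 32851 promoter windows of this length, 13.6% held TATAAA, 35.7% GGGCGG and 7.81% TGANTCA. Windows were found for 6 of the 9 keratins.

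**Figure D4:**
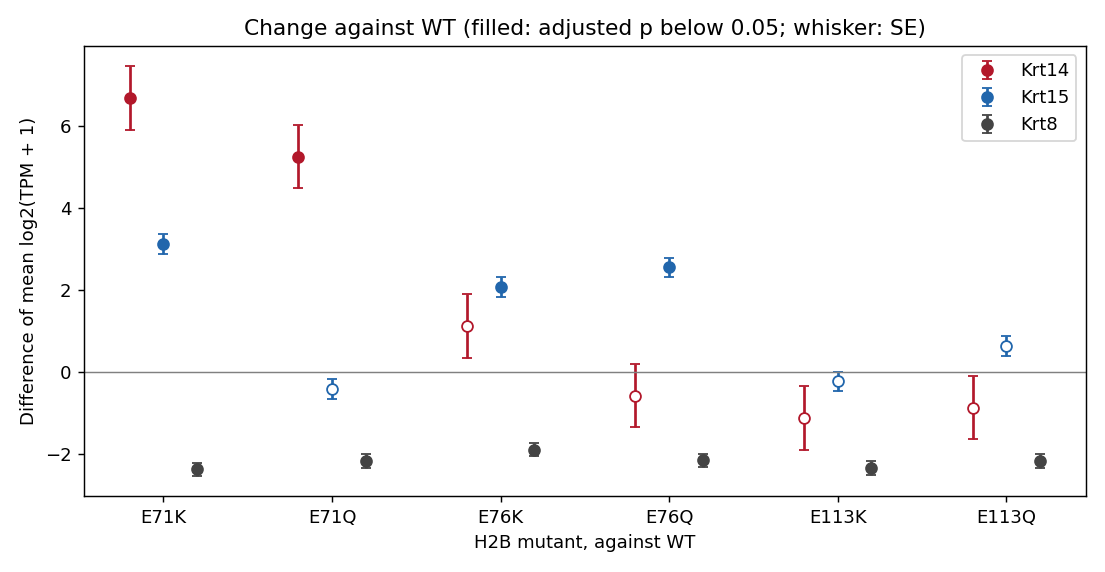
Difference of mean log2(TPM + 1) from WT for the 3 tested keratins in each mutant, with whiskers for SE and filled symbols for adjusted p below 0.05 (limma). Krt8 lies below 0 in all 6 mutants, Krt14 is called in E71K and E71Q, and Krt15 in E71K, E76K and E76Q.

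The remaining keratins were near the bottom of the scale. Krt5, the obligate type II partner of Krt14 in basal cells, was at most 0.133 TPM in any library and at 0 in 7, so the 3 E71K libraries that held 79.1 to 483 TPM of Krt14 held 0.133, 0.0412 and 0.0936 TPM of Krt5. Krt20, the gut and bladder keratin, was listed above 0 only in E71K (0.0761, 0.0471 and 0.0535 TPM) and in E71Q (0.157, 0 and 0.0722 TPM), and the depth that would say how many reads these are is unknown. In the fit without the filter Krt20 was called in E71Q (0.10, adjusted p = 0.0256) and not in E71K (0.08, adjusted p = 0.0982).

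Type I and type II chains were thus unequal in opposite directions. The 6 type I genes summed to 308 ± 206 TPM in E71K and 149 ± 186 in E71Q, against 2.75 ± 0.705 in WT, while the 3 type II genes summed to 0.389 ± 0.19 TPM in E71K and 0.554 ± 0.0318 in E71Q, against 9.24 ± 0.539 in WT (SD, n = 3 each). Over all keratin genes of the table, 28 of type I and 26 of type II, the sums were 338 ± 218 and 10.5 ± 5.6 TPM in E71K and 172 ± 200 and 6.36 ± 1.72 TPM in E71Q, against 26.9 ± 1.95 and 25.6 ± 0.721 TPM in WT, type I before type II. WT was the group whose sums of the 2 types were nearest to each other. In E113K both were low, at 6.3 ± 0.362 TPM for type I and 3.65 ± 0.408 TPM for type II.

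**Figure D5:**
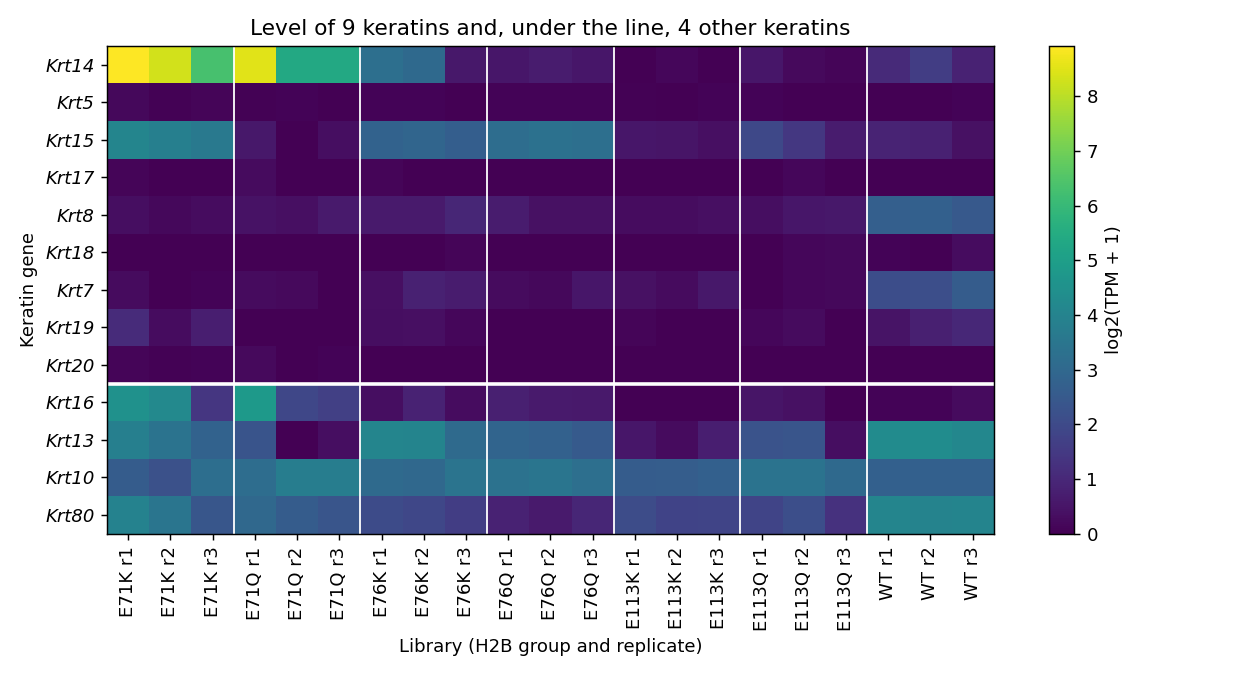
Level of the 9 keratins and, under the line, of the 4 other keratins that were tested, as log2(TPM + 1), in the 21 libraries, with the mutants to the left of WT. All rows share the same colour scale. Krt14 is brightest in the libraries of E71K and E71Q, in which Krt16 is also at its highest. Krt7 and Krt8 are at their highest in WT, at low levels on this scale and under Krt13 and Krt80 there.

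Of the 46 other keratin genes, 41 stayed under 1 TPM in every library and 13 of these were at 0 throughout, and Krt10, Krt13, Krt16 and Krt80 were tested. Krt13, the type I keratin of internal stratified epithelium, fell in E71Q (-3.36, adjusted p = 7.44e-05), E76Q (-1.52, adjusted p = 0.0276), E113K (-3.73, adjusted p = 2.26e-05) and E113Q (-2.60, adjusted p = 0.00125), and was not called in E71K (-0.90, adjusted p = 0.234) or E76K (-0.53, adjusted p = 0.467). Krt80, a type II keratin, fell in 5 mutants, with log2 fold changes between -3.20 in E76Q and -1.36 in E71Q, and was not called in E71K (-0.75, adjusted p = 0.0739). Krt10, the type I keratin of suprabasal epidermis, rose in E71Q (0.84, adjusted p = 0.00352) and E76Q (0.62, adjusted p = 0.0227). It was not called in E76K (0.44, adjusted p = 0.113) or E113Q (0.55, adjusted p = 0.055), although all libraries of both lay above those of WT. In E113Q it was called after median-ratio rescaling (0.49, adjusted p = 0.00689). Neither was it called in E71K (-0.06, adjusted p = 0.879) or E113K (-0.08, adjusted p = 0.777).

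Genes that accompany keratins in epithelium were compared next. Counts of risen and fallen list genes stand beside these shares of all tested genes: 12.5% rose and 14.2% fell in E71K, 20.7% and 23.5% in E71Q, 23.5% and 9.67% in E76K, 22% and 22.4% in E76Q, 30.3% and 20.7% in E113K, and 17.9% and 12.7% in E113Q. Of 21 genes of epithelial adhesion and identity, 19 stayed under 1 TPM in every library, and Cdh1, E-cadherin, the only one tested, fell in all 6 mutants: it averaged 3.08 ± 1.16 TPM in E71K, 0.631 ± 0.504 in E71Q, 0.487 ± 0.0404 in E76K, 0.706 ± 0.122 in E76Q, 0.557 ± 0.0829 in E113K and 3.01 ± 0.931 in E113Q, against 6.19 ± 0.47 in WT. The summed level of the list was 2.67 to 4.94 TPM in E71K and 1.79 to 2.5 TPM in E71Q, against 7.92 to 8.48 TPM in WT. The part of other cells in the Krt14 result was not tested.

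Of 19 genes of desmosomes and plakins, the junctions and linkers to which keratin filaments attach, 7 were tested, with 1 risen and 2 fallen in E71K, 2 and 3 in E71Q, 1 and 4 in E76K, 0 and 5 in E76Q, 0 and 5 in E113K and 1 and 3 in E113Q. Their median log2 fold change ran from -0.89 in E113K to 0.00 in E71K, beside medians of 0.13 and 0.00 over all tested genes. In E71K these counts are close to what the shares of all tested genes would give for 7 genes. Jup, plakoglobin, fell in all 6 mutants, to 0.402 ± 0.305 TPM in E71K and 4.36 ± 0.882 TPM in E76K, against 16.7 ± 1.53 TPM in WT. Pkp1, plakophilin 1, rose in E71Q to 11.3 ± 4.16 TPM, against 1.46 ± 0.122 TPM in WT (adjusted p = 1.86e-06). It fell in E76K (-0.96, adjusted p = 0.00855), E113K (-1.27, adjusted p = 0.00064) and E113Q (-0.94, adjusted p = 0.0101). Perp, a p53 target that sits in desmosomes, rose in E113Q to 28.1 ± 1.33 TPM, against 0.478 ± 0.286 TPM in WT (adjusted p = 1.07e-12). Dsp, desmoplakin, which ties keratin to the desmosome, was at most 0.125 TPM in any library.

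Of 7 genes of the hemidesmosome and its laminin, which anchor basal cells, 5 were tested, with 1 risen and none fallen in E71K, 3 risen and none fallen in E71Q, 2 and 3 in E76K, 1 and 3 in E76Q, 0 and 4 in E113K and 2 and 2 in E113Q. The 1 gene that rose in E71K is near the share of all tested genes. The median log2 fold change of the 5 was 0.25 in E71K, 0.57 in E71Q, -0.67 in E76K, -0.55 in E76Q, -0.97 in E113K and 0.26 in E113Q, beside 0.00, 0.00, 0.16, 0.02, 0.13 and 0.06 over all tested genes in the same order. Lamb3, a chain of laminin-332, rose in E71K (33.7 ± 11.2 TPM), E71Q (51.5 ± 2.47), E76K (7.73 ± 1.97), E76Q (15.1 ± 0.488) and E113Q (4.92 ± 2.5) and fell in E113K (0.943 ± 0.0865), against 2.26 ± 0.046 TPM in WT. Itgb4, integrin beta 4, rose in E71Q to 45.8 ± 7.91 TPM (adjusted p = 2.31e-05) and fell in E113K to 4 ± 1.65 TPM (adjusted p = 2.81e-06), against 15.8 ± 2.97 TPM in WT.

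Some genes of covering epithelia were also high in WT, where Krt7 and Krt8 were high. Of 18 genes of the cornified envelope, 4 were tested, and 3 of them fell in every mutant: Sprr2b, a small proline-rich envelope protein, was at most 2.94 ± 1.22 TPM in a mutant (E76K), against 512 ± 60.2 TPM in WT, Sprr1a at most 15 ± 10.3 TPM (E76K), against 61.6 ± 5.62 TPM in WT, and Sprr2h was at 0 in 5 mutants and at 6.23 ± 8.2 TPM in E76K, against 26.5 ± 12.5 TPM in WT. The fourth, Sbsn, suprabasin, went otherwise: it rose in E71Q (1.55, adjusted p = 0.00145; 17.6 ± 12.5 TPM, against 4.54 ± 0.689 TPM in WT) and was not called in the other 5 mutants, with log2 fold changes between -0.59 in E113Q and 0.66 in E71K. Of 9 mesothelial markers only Msln, mesothelin, was tested, and it fell in all 6 mutants, with means between 0.0496 ± 0.0859 TPM in E76Q and 19.9 ± 7.24 TPM in E76K, against 104 ± 5.39 TPM in WT. Wt1 was at 0 in 14 libraries and Bnc1 in 17, and the part of mesothelial cells in the Krt7 and Krt8 result was not tested. Of 16 mesenchymal markers, all tested, 5 rose and 2 fell in E71K, 6 and 6 in E71Q, 8 and 0 in E76K, 7 and 3 in E76Q, 12 and 0 in E113K, and 9 and 1 in E113Q. Their median log2 fold change was between -0.19 in E71Q and 0.95 in E113K, beside 0.00 and 0.13 over all tested genes. Their summed level was 4747 to 8999 TPM in E71K, 5281 to 7879 in E71Q, 7762 to 8678 in E76K, 7347 to 8376 in E76Q, 7398 to 7700 in E113K and 6415 to 6669 in E113Q, against 3537 to 3761 TPM in WT. Of 14 other intermediate filament genes 9 were tested, and Nes, nestin, fell in all mutants but E113Q, to 0.714 ± 0.0929 TPM in E113K, against 18.9 ± 1.8 TPM in WT. Of the mesenchymal markers with the largest called changes, Fn1 and Snai2 rose in all 6 mutants, and Cdh11 rose in all but E71Q, where it fell. Another of them, the surface marker Thy1, was near 0 in E71K (0.0791 ± 0.0943 TPM), E71Q (0.963 ± 0.471) and E76Q (0.472 ± 0.14). It stood at 106 ± 4.23 TPM in E76K, 61.4 ± 1.26 in E113K and 94.2 ± 35 in E113Q, against 66 ± 0.461 TPM in WT.

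Of 18 transcription factors known to drive epithelial genes, 10 were tested, with 3 risen and 3 fallen in E71K, 2 and 4 in E71Q, 1 and 3 in E76K, 3 and 2 in E76Q, 4 and 2 in E113K, and 3 and 1 in E113Q. Several of these counts, such as the 2 that rose in E71Q, are near the shares of all tested genes. Their median log2 fold change was 0.23 in E71K and -0.39 in E71Q, beside 0.00 in both over all tested genes. Junb, an AP-1 subunit, rose in all 6 mutants, to 70.7 ± 33.6 TPM in E71K and 136 ± 10.7 in E113K, against 29 ± 1.47 TPM in WT, and Fosl1, another AP-1 subunit, fell in 5, to 5.07 ± 3.82 TPM in E71K and 0.745 ± 0.433 in E76Q, against 25.2 ± 2.53 TPM in WT. Cebpa rose in E76Q, E113K and E113Q, to 5.44 ± 0.457 TPM in E113Q, against 0.351 ± 0.168 TPM in WT. Klf5 fell in E71Q, E76K and E113K and was at 5.71 ± 2.77 TPM in E71K (adjusted p = 0.179), against 3.62 ± 0.284 TPM in WT. Trp63, the master regulator of basal keratinocytes, is given here although its change was smaller than those above and it was picked with its values known: it was between 0.573 and 6.66 TPM, rose in E71K (0.98, adjusted p = 0.0197), E76Q (1.26, adjusted p = 0.00248), E113K (1.30, adjusted p = 0.0016) and E113Q (1.07, adjusted p = 0.0108), and was not called in E71Q (-0.26, adjusted p = 0.502) or E76K (0.21, adjusted p = 0.61). Krt14 was high in E71K and E71Q and Krt15 in E71K, E76K and E76Q, and the part of Trp63 in these levels was not tested.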

How the data were processed

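RNA from 21 libraries in 7 groups was analysed as gene-level TPM, the unit of the per-sample table that the authors deposited; a table of group means was not used. Per the submitters' processing notes Salmon, featureCounts 1.4.4, DESeq and build mm10 were used, with no role given, and which tool made the TPM values is not given in the sources used here. Per the labels' protocols RNA came from an RNeasy kit and libraries from NEBNext Ultra II; strand is not stated. Each library sums to 999897 to 999931 TPM. No counts were used, so depth, counting intervals and limits for a 0 cannot be given.

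Genes whose mean reached 1 TPM (12192) were tested. A model of the 7 groups was fitted to log2(TPM + 1) in the 21 libraries (limma 3.58.1, R 4.3.3, moderated variances with trend; 14 residual and 3.19 prior degrees of freedom), and p-values were adjusted by Benjamini-Hochberg over all tested genes within each of 18 comparisons and for the F test. A gene with an adjusted p below 0.05 is called risen or fallen. The script was tested on simulated data. Errors are SD of TPM over 3 libraries and SE of log2 fold changes. Alternatives were pseudocounts of 0.1 and 5, no filter, a mean of at least 5 TPM, median-ratio rescaling, Mir6236 left out, no trend, replicate block, compared libraries only, the 4 libraries apart left out, and each library left out.

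The members and lists were chosen with earlier results of these data known. Named are all 9 keratins, up to 4 genes of a list with the largest called change against WT, other tested keratins, and the 2 genes most correlated with each tested keratin; defining markers and Trp63 beside these were chosen after their values were seen. Sequences and positions come from GENCODE M21 and RefSeq.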

Additional observations from a re-analysis of the deposited data

Results flagged for a closer look

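Krt15 had a lysine to glutamine difference that itself differed between residues. The difference of E71K from E71Q exceeded that of E76K from E76Q by 4.0 ± 0.34 on the log2 scale (limma, adjusted p = 1.06e-07, in a comparison in which 21.7% of tested genes were called), and it exceeded that of E113K from E113Q by 4.39 ± 0.34 (adjusted p = 7.86e-08; 32.7% called). All 3 E71K libraries (11.1 to 15.5 TPM) lay above all 3 E71Q libraries (0 to 0.483 TPM), while E76K (5.32 to 6.55 TPM) lay under E76Q (8.18 to 9.08 TPM) and E113K (0.296 to 0.469 TPM) under E113Q (0.585 to 2.82 TPM).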

How the results depend on the processing

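Krt8 kept its fall in all 6 mutants, and Krt14 its rise in E71K and E71Q and Krt15 its rise in E71K, E76K and E76Q, under every alternative in which they were tested; no value reversed. The number of calls of the 3 tested keratins against WT was 11. It was 23 without the filter (9 tested), 2 with a mean of at least 5 TPM (Krt14 alone tested), 17 without the 4 libraries apart and 11 to 12 with 1 library left out. Lysine against glutamine gave 2 calls, with 0 at 5 TPM, 4 without the 4 libraries and 1 to 4 with 1 library left out. Between residues there were 13 calls, with 5 at 5 TPM and 11 to 13 with 1 left out. The differences of lysine against glutamine between residues gave 2 calls, with 4 without the filter, 0 at 5 TPM, 5 without the 4 libraries and 2 to 3 with 1 left out. The F test gave 3, with 6 without the filter, 1 at 5 TPM and 3 with 1 left out. Krt14 in E113K was called with a pseudocount of 0.1 (-3.37, adjusted p = 0.00649) or in the compared libraries alone (-1.12, adjusted p = 0.00393), which also called it in E76Q (-0.58, adjusted p = 0.049) and E113Q (-0.87, adjusted p = 0.0334), and Krt15 lost its E113K to E113Q call there (-0.86, adjusted p = 0.0947).

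With replicate number as a block there were 12 calls against WT, 2 between amino acids and 12 between residues, and of the comparisons with WT only Krt15 in E113Q changed, to called (0.63, adjusted p = 0.0276). Libraries of the same number in different groups had r of their deviations between -0.17 and 0.42 (63 pairs, 13 above 0.1). Those of different numbers had r between -0.40 and 0.29 (126 pairs, 15 above 0.1), and 7 of 21 libraries correlated best with one of their own number. Replicate 3 lay at the high end of the leading component in E71K (51.2), E71Q (19.8), E76K (25.8) and E113Q (19.3). Whether libraries of the same number share an effect was not tested.

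Over all genes, 3250 were called in E71K, and 5135 with median-ratio rescaling, 5208 without Mir6236, 4939 without the 4 libraries and 1442 in the compared libraries alone; in those alone E76K gave 6136 (main 4044) and E76Q 8276 (main 5403). The risen share of calls was 70.8% in E76K and 53.1% after median-ratio rescaling. Without Mir6236 it was 65.8% in E71K, 59.8% in E71Q and 61.1% in E76Q, beside 46.9%, 46.8% and 49.5%. Rescaling lowered the share from 73.9% to 52.4% between E76K and E71K, 59.8% to 48.5% between E113K and E71K, 62.3% to 50.5% between E113Q and E71Q, 63.1% to 48.2% between E113Q and E76Q, and 73.5% to 49.5% between E76K and E76Q. All tested genes had a median log2 fold change of 0.16 for E76K and 0.13 for E113K, against 0.01 for both after rescaling. Calls of list genes moved too. After rescaling, Col1a1 (0.22, adjusted p = 0.233) and Zeb2 (0.41, adjusted p = 0.0935) were no longer called risen in E76K. Zeb1 was then called fallen there (-0.43, adjusted p = 0.00991). Without the 4 libraries, Col3a1, Pdgfra, Pdgfrb, Prrx1 and Cdh2 were called fallen in E71K. Some counts of other lists changed as well. The cause of these changes was not tested. The unknown depth limits every value under 1 TPM.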
